A study of Homo sapiens with 6 samples.

Results

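The super elongation complex is the group of proteins that helps RNA polymerase II leave its pause near the start of a gene. Its scaffold is an AFF protein (AFF1 or AFF4, with AFF2 and AFF3 in related complexes), on which the kinase pair of CDK9 and cyclin T1, known as P-TEFb, meets an ELL elongation factor and a YEATS reader of acetylated histones, MLLT1 (ENL) or MLLT3 (AF9). CDK9 phosphorylates the polymerase tail and the pausing factors. Several of these genes are known as fusion partners of KMT2A (MLL) in leukaemia. The 10 genes described here are AFF1, AFF2, AFF3, AFF4, ELL, ELL2, MLLT1, MLLT3, CDK9 and CCNT1, out of 20169 gene rows in the count table. They were taken by symbol, and all 10 were found and passed the low-count filter. AFF2 drew attention to the group through its large difference between the lines, so the differences of all 10 are given as descriptions, with no p-value.

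RNA-seq of polyadenylated RNA was made from HEK293T, an immortal line derived from human embryonic kidney that expresses the SV40 large T antigen. The cells of both groups held a landing pad, a genomic docking site for a reporter: in 3 libraries it carried the CAG promoter, a strong composite promoter with viral enhancer and actin parts, and in 3 the PGK promoter, taken from a housekeeping gene of glycolysis. The lines are described as monoclonal and the labels name a single line for each promoter, so effects of promoter and of clone cannot be told apart in any value. Nothing states that the 3 libraries of a line were grown separately, so their spread, and the p-values that rest on it, may be technical.

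Total counts were 22450538 to 23442542 in the CAG libraries and 21896246 to 22889708 in the PGK libraries. Of 6 HEK293 markers all had counts, with summed levels of 881 to 931 CPM, counts scaled to library size, in CAG and 691 to 708 CPM in PGK. Summed levels of 4 immune markers were 0.89 to 1.38 CPM in CAG and 0.657 to 1.08 CPM in PGK, with CD3E at 0. Those of the 3 endothelial markers found were 0.252 to 0.621 CPM in CAG and 0.307 to 0.466 CPM in PGK, and those of 4 hepatocyte markers reached at most 0.133 CPM in CAG and 0.186 CPM in PGK, with ALB at 0. In edgeR's quasi-likelihood test, 62.0% of the 13103 genes tested had a Benjamini-Hochberg adjusted p under 0.05 and were called different, 31.6% as higher in CAG and 30.4% as lower.

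The paralogues of this group share short exact stretches of sequence, which bears on whether a read can fall to the wrong gene. The longest exact run that any AFF2 protein-coding transcript shared with one of AFF1, AFF3 or AFF4 was 23, 17 and 17 bases for these 3 genes, and within coding sequence 13, 17 and 14 bases. Runs within coding sequence were 14 bases for ELL with ELL2 and 17 bases for MLLT1 with MLLT3. For 3 such pairs, coding stretches that hold a longest coding run are printed below from GENCODE 29 transcripts (annotated on GRCh38). They run 5′ to 3′ in the sense of the gene, with the shared run in capitals, and show how long an exact coding match gets. ELL and ELL2 had 3 runs of that length, and not all are printed. The 23-base run of AFF2 with AFF1 is longer and is not printed. Likeness with mismatches was not measured.
AFF2 (chromosome X, + strand, coding bases 67 to 96): gatccaAGCTGTGTTGAAGAAATcttgcgg
AFF3 (chromosome 2, - strand, coding bases 892 to 921): accaacAGCTGTGTTGAAGAAATaatccgg
ELL (chromosome 19, - strand, coding bases 272 to 301): gcagcttcGACTGCATCCAGCAgtatgtct
ELL2 (chromosome 5, - strand, coding bases 284 to 313): gcagctttGACTGCATCCAGCAaacattct
MLLT1 (chromosome 19, - strand, coding bases 82 to 111): ttcactCACGACTGGATGGTGTTtgtccgc
MLLT3 (chromosome 9, - strand, coding bases 82 to 111): ttcaccCACGACTGGATGGTGTTcgtacgc
The MLLT1 and MLLT3 stretches lie at the same coding positions of the transcripts used. Of the 10 genes, 8 overlap an annotated gene on the other strand and 5 one on the same strand. No source used here states how strand was handled in counting, so reads of such partners cannot be told apart. None of the 21 overlapping genes had a row of its own in the table.

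AFF2 (ENSG00000155966, chromosome X), the scaffold gene silenced in fragile XE intellectual disability, was nearly absent from the CAG line. It had 7, 2 and 9 counts in the CAG libraries, against 471, 566 and 529 counts in the PGK libraries. On the CPM scale it was at 0.31, 0.0847 and 0.378 in CAG and at 21.9, 25.4 and 23.2 in PGK. Every CAG library was far below every PGK library, and CAG replicate 2 lay under the level that 3 counts would give it, 0.127 CPM. The means were 0.258 ± 0.153 CPM in CAG and 23.5 ± 1.78 CPM in PGK (SD, n = 3 each). The 18 counts in CAG came to 1.09% of the PGK level, with a 95% exact binomial interval of 0.646% to 1.73% that covers counting error only. The fitted log2 fold change, CAG over PGK, was -6.48 (SE 0.18). In bulk RNA, fewer cells that express a gene and less RNA per cell cannot be told apart.

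AFF1 and AFF3 were higher in the CAG line. AFF1 (ENSG00000172493, chromosome 4), a core scaffold of the complex and a frequent fusion partner in infant leukaemia, was at 54.9, 57.4 and 56.2 CPM in CAG and at 31.4, 32.3 and 31.2 CPM in PGK. The lines did not overlap and each was tight, with means of 56.2 ± 1.25 CPM in CAG and 31.6 ± 0.615 CPM in PGK (SD, n = 3 each). This was a 1.78-fold difference, or 0.83 (SE 0.06) on the log2 scale. AFF3 (ENSG00000144218, chromosome 2), first known as a nuclear protein of lymphoid cells, was at 19.4, 19.6 and 18.4 CPM in CAG and at 10.7, 12.5 and 11.9 CPM in PGK. Its libraries did not overlap between lines either, and its level was 1.63-fold higher in CAG, or 0.71 (SE 0.08) on the log2 scale.

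AFF4 (ENSG00000072364, chromosome 5), the main scaffold that brings P-TEFb into the complex, had the highest count of the family in both lines. It was at 98.1, 118 and 114 CPM in CAG and at 111, 132 and 120.1 CPM in PGK. The lines overlapped, and the log2 difference of -0.14 (SE 0.07) did not pass the test.

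**Figure D1:**
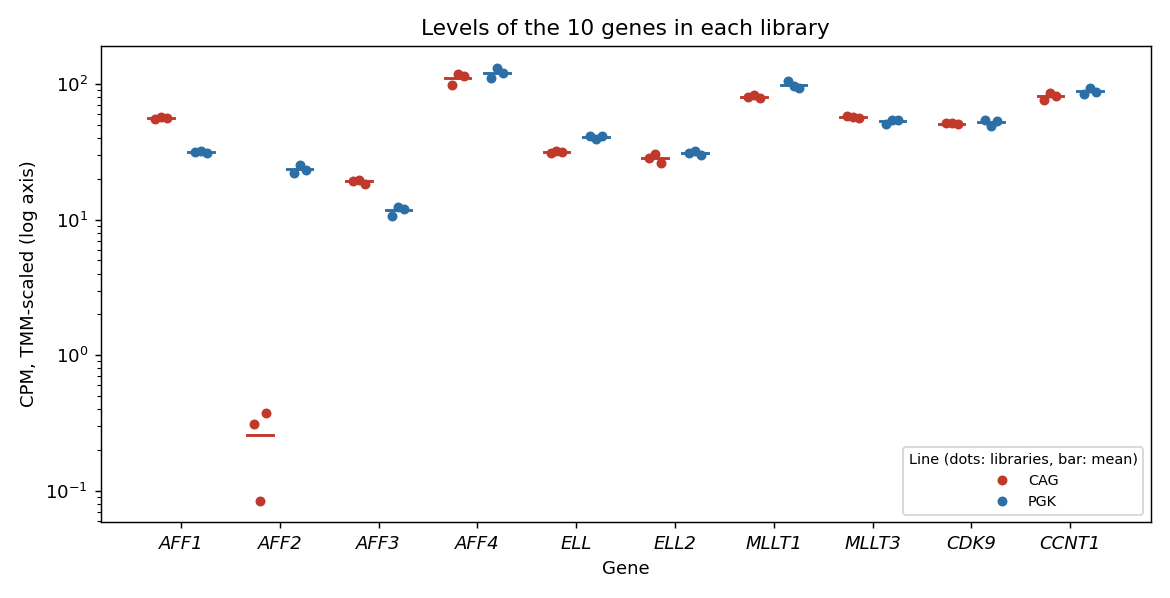
Levels of the 10 genes in CPM on a log axis, with 3 CAG libraries (red) left of 3 PGK libraries (blue) for each gene, dots for libraries and bars for means. AFF2 lies between 0.0847 and 0.378 CPM in CAG and between 21.9 and 25.4 CPM in PGK, while the other genes stay within 2-fold between lines.

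Levels of different genes were compared per kilobase of merged exons, since a longer transcript gives more reads. Summed over AFF1 to AFF4, the level was 15.3, 17.3 and 16.8 CPM per kb in the CAG libraries and 15.2, 17.5 and 16.1 CPM per kb in the PGK libraries. The means were 16.5 ± 1.02 in CAG and 16.3 ± 1.17 in PGK (SD, n = 3 each), a ratio of 1.01, and the lines overlapped. The make-up of that sum differed between the lines. AFF2 made up 0.113 ± 0.0684% of it in CAG and 10.3 ± 0.056% in PGK. AFF1 made up 31.8 ± 1.33% in CAG and 18.2 ± 1.05% in PGK. AFF3 made up 9.13 ± 0.691% in CAG and 5.64 ± 0.14% in PGK. AFF4 was the largest part in both, at 58.9 ± 2.02% in CAG and 65.9 ± 0.988% in PGK. For each of the 4 genes, the shares of the 3 CAG libraries did not overlap those of the 3 PGK libraries. These shares come from the same counts as the differences above and are not further evidence for them.

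ELL and MLLT1 were lower in CAG, and their paralogues ELL2 and MLLT3 differed less. ELL (ENSG00000105656, chromosome 19), which raises the elongation rate of RNA polymerase II, was at 30.9, 32.0 and 31.6 CPM in CAG and at 41.1, 39.1 and 41.6 CPM in PGK. The lines did not overlap, and the log2 fold change was -0.37 (SE 0.06). ELL2 (ENSG00000118985, chromosome 5), known in plasma cells for its part in making secreted antibody mRNA, was at 28.6, 30.3 and 26.1 CPM in CAG and at 31.2, 32.0 and 30.1 CPM in PGK. CAG replicate 2 lay within the PGK range, and the log2 fold change of -0.13 (SE 0.07) did not pass the test. Per kilobase, ELL and ELL2 summed to 10.3 ± 0.343 in CAG and 12.5 ± 0.165 in PGK (SD, n = 3 each), with ELL2 at 37.6 ± 1.75% of the sum in CAG and 34.0 ± 1.38% in PGK.

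MLLT1 (ENSG00000130382, chromosome 19), a reader that ties the complex to acetylated chromatin, was at 79.7, 82.6 and 79.1 CPM in CAG and at 104.6, 96.6 and 93.1 CPM in PGK. All CAG libraries lay below all PGK libraries, and the log2 fold change was -0.29 (SE 0.05). MLLT3 (ENSG00000171843, chromosome 9), a reader of the same kind, was at 57.9, 57.6 and 55.7 CPM in CAG and at 50.7, 54.3 and 54.6 CPM in PGK. The 3 CAG libraries lay just above the 3 PGK libraries, yet the log2 fold change of 0.10 (SE 0.05) did not pass the test. Per kilobase, the pair summed to 24.0 ± 0.487 in CAG and 27.2 ± 0.979 in PGK (SD, n = 3 each). MLLT3 made up 29.3 ± 0.46% of that sum in CAG and 24.1 ± 1.8% in PGK.

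**Figure D2:**
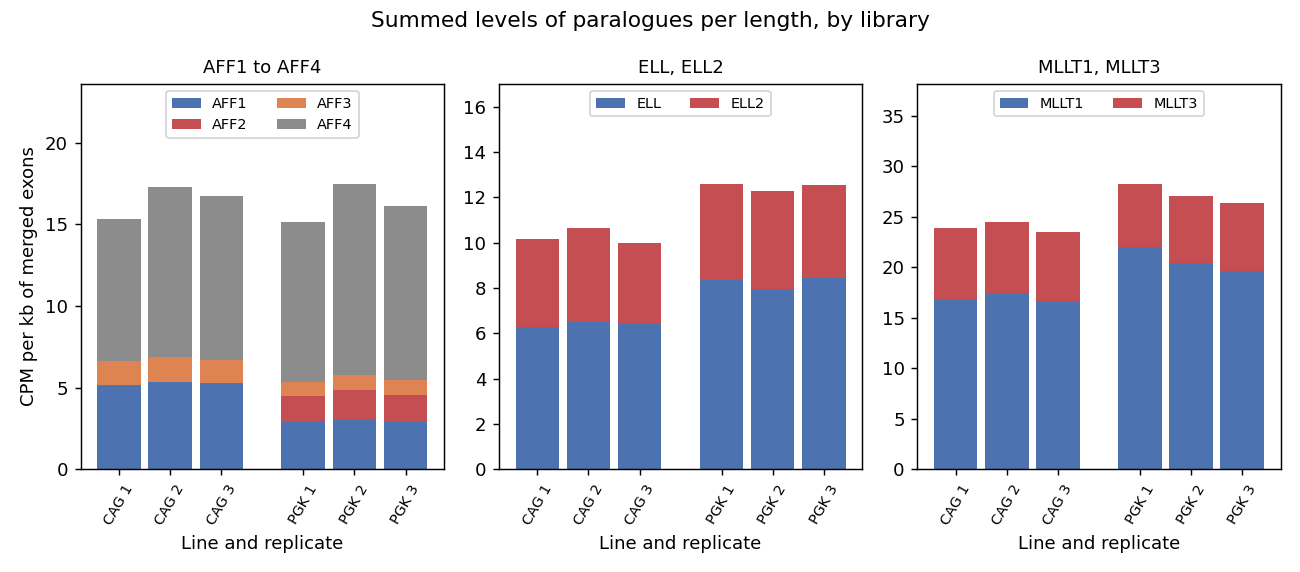
Level per kilobase of merged exons of each paralogue, stacked by library, with the 3 CAG libraries left of the 3 PGK libraries. The sum of AFF1 to AFF4 is alike in both lines (means of 16.5 in CAG and 16.3 in PGK) while the AFF2 part is 0.113% in CAG and 10.3% in PGK, and the sums of the ELL pair and of the MLLT pair are lower in CAG.

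The kinase itself differed little. CDK9 (ENSG00000136807, chromosome 9), the catalytic subunit of P-TEFb, was at 51.3, 51.2 and 50.4 CPM in CAG and at 54.2, 49.3 and 53.0 CPM in PGK. The lines overlapped, and the log2 fold change of -0.03 (SE 0.05) did not pass the test, with a direction that turned to 5.44e-04 when counts were scaled by library size only. CCNT1 (ENSG00000129315, chromosome 12), the cyclin that activates CDK9 and the host factor of the HIV Tat protein, was at 75.7, 85.4 and 82.0 CPM in CAG and at 84.3, 93.8 and 88.0 CPM in PGK. CAG replicate 2 lay within the PGK range, and the log2 fold change of -0.13 (SE 0.06) did not pass. The other cyclin of P-TEFb, CCNT2, named after its value was seen, was called higher in CAG by 0.22 (SE 0.05), with an edgeR adjusted p of 0.00176. Per kilobase, the CCNT1 share of both cyclins was 64.4 ± 0.595% in CAG and 69.7 ± 1.31% in PGK (SD, n = 3 each).

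Counted together, 5 of the 10 genes were called, with AFF1 and AFF3 higher and AFF2, ELL and MLLT1 lower in CAG. That is 50%, beside 62.0% of all tested genes, and since this contrast was in view when the genes were chosen nothing is read from it. The lines did not overlap for 6 of the 10, beside 65.5% of all tested genes, with 3 above in CAG (33.5% of all tested genes) and 3 below (32.0%). The median log2 fold change was -0.13 for the 10 genes and -0.00211 for all tested genes. The 5 calls held in each of 13 alternative fits. Without CAG replicate 2 there were 8 calls, since AFF4 at -0.19, ELL2 at -0.19 and CCNT1 at -0.17 on the log2 scale were then called lower.

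The order of levels per kilobase spanned a wide range in CAG. From the top it was CDK9 (17.0) and MLLT1 (17.0), CCNT1 (11.0), AFF4 (9.73), MLLT3 (7.02), ELL (6.39), AFF1 (5.23), ELL2 (3.86), AFF3 (1.50) and AFF2 (0.0184 CPM per kb). Libraries of CDK9 and MLLT1 overlapped, as did those of CCNT1 and AFF4, while all other neighbours in this order were apart. In PGK the order was MLLT1 (20.7), CDK9 (17.4), CCNT1 (12.0), AFF4 (10.7), ELL (8.24), MLLT3 (6.55), ELL2 (4.24), AFF1 (2.95), AFF2 (1.68) and AFF3 (0.918 CPM per kb). There only CCNT1 and AFF4 overlapped. ELL and MLLT3 stood in opposite order in the 2 lines, as did AFF1 and ELL2, and AFF3 and AFF2. Among all tested genes, AFF2 lay above 0.17% in CAG and above 25.4% in PGK, while AFF4 lay above 63.8% in CAG and above 66.2% in PGK. AFF2 passed the low-count filter only through its PGK counts, and genes low in both lines were not tested. Its place near the bottom in CAG therefore follows from the filter and is not a rank among all genes.

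Each gene was also set beside the 50 tested genes around it, 25 on each side in GENCODE 29 order. Over all tested genes, 31.6% were called higher and 30.4% lower, the shares to set beside the counts here. Around AFF1 the median log2 fold change was 0.51, with 41 of 50 neighbours called higher, and AFF1 itself was at 0.83. Around ELL the median was -0.55, with 43 of 50 called lower, and around MLLT1 it was -0.37, with 36 of 50 called lower. ELL at -0.37 and MLLT1 at -0.29 were thus less low than the median of their neighbours. AFF3 was at 0.71, while the median around it was -0.03. For AFF4, ELL2, MLLT3, CDK9 and CCNT1, the medians lay between -0.06 and -0.05. The part of the neighbours' shift in the differences of AFF1, ELL and MLLT1 was not tested.

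**Figure D3:**
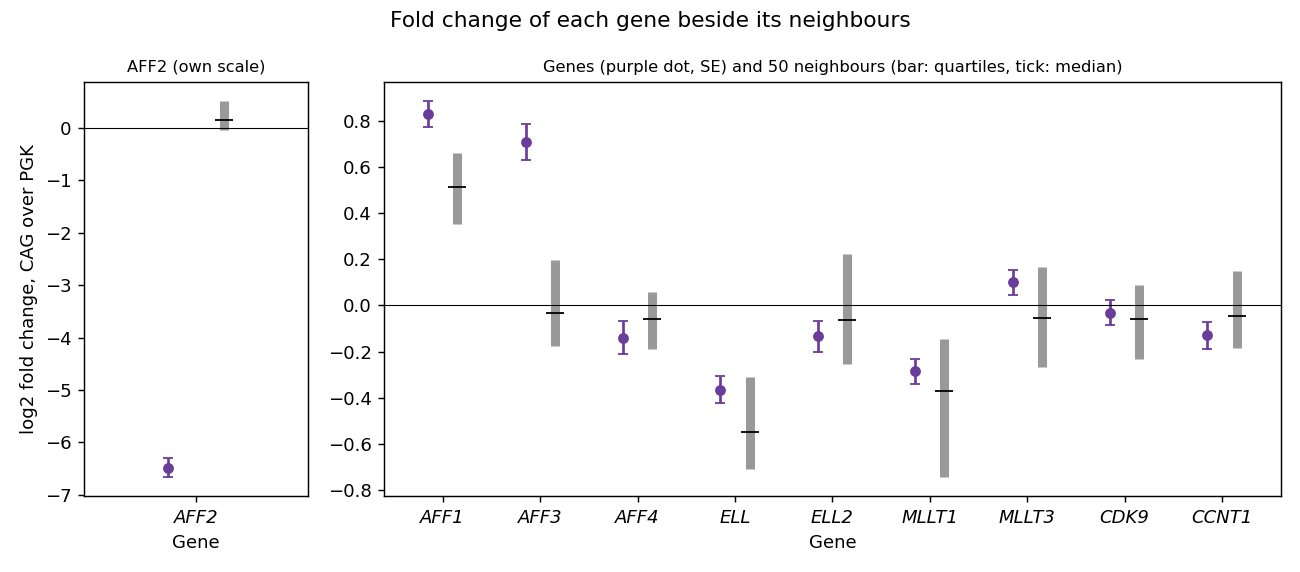
Log2 fold change, CAG over PGK, of each gene (purple dot with SE) beside the quartiles (grey bar) and median (tick) of its 50 tested neighbours, with AFF2 on its own scale. AFF1, ELL and MLLT1 have neighbours shifted the same way as themselves (medians of 0.51, -0.55 and -0.37), and AFF2 and AFF3 do not.

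AFF2 had the lowest value among the genes beside it. The median log2 fold change of its 50 neighbours was 0.15, with 25 called higher and 10 lower. The shares over all tested genes were 31.6% higher and 30.4% lower. All 50 neighbours had a value above that of AFF2. Since AFF2 was noticed for its large difference, its place below them is a description only. FMR1, the gene of fragile X syndrome and the nearest tested gene before AFF2, was at 135 CPM in CAG and 124 CPM in PGK, or 0.13 (SE 0.05) on the log2 scale. IDS, a lysosomal sulfatase and the nearest after it, was at 40.2 CPM in CAG and 35.6 CPM in PGK, or 0.18 (SE 0.06). By edgeR's test with Benjamini-Hochberg adjustment both were called, with adjusted p of 0.0265 for FMR1 and 0.0136 for IDS. Further out, MAGEC2, a cancer-testis antigen, was higher in CAG by 2.70 (SE 0.49) but rested on 43 counts in CAG and 6 in PGK. LDOC1 fell by 0.99 (SE 0.06). Their edgeR adjusted p was 9.16e-05 for MAGEC2 and 1.39e-10 for LDOC1. CXorf40A at 0.07 and CXorf40B at 0.01 did not pass, and as near-identical copies their counts are uncertain.

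**Figure D4:**
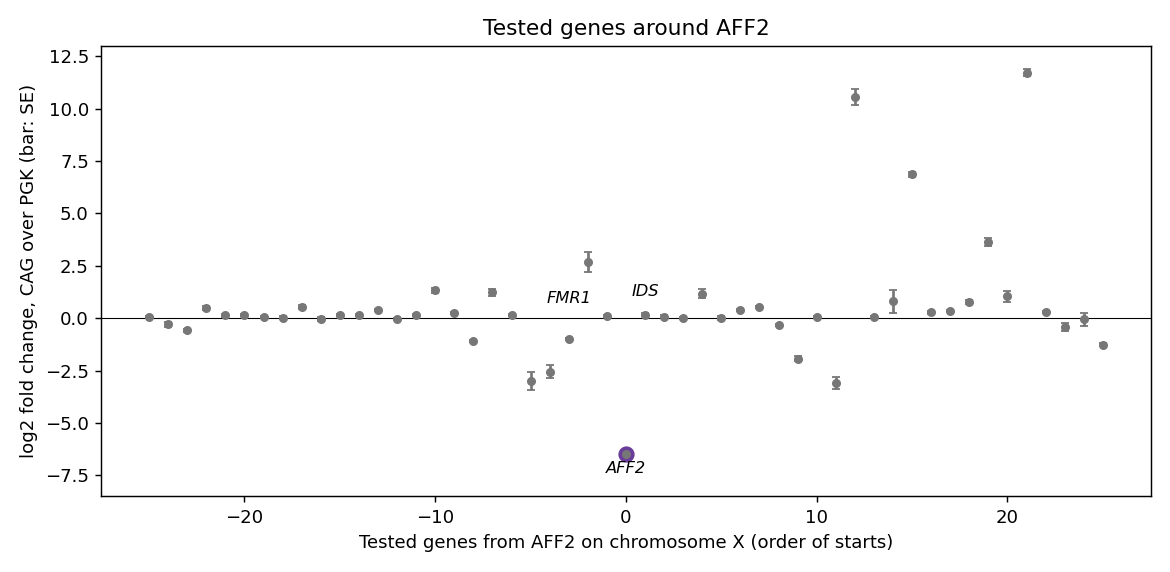
Log2 fold change, CAG over PGK, with SE, of the 25 tested genes on each side of AFF2 on chromosome X, in order of their starts. FMR1 (0.13) and IDS (0.18) flank AFF2 (-6.48, purple), and the 2 highest points, GABRA3 and MAGEA1, named after their values were seen, are fitted values of genes with 0 and 2 counts in PGK.

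The genes whose levels over the 6 libraries were most like those of AFF2 came from other places in the genome. Likeness was the Euclidean distance of log2(CPM + 0.1), and with 2 lines it mostly records a like level in each line. The nearest was WDR72 (chromosome 15, distance 1.41), a gene of enamel formation, at 0.577, 0.297 and 0.336 CPM in CAG and at 19.3, 19.5 and 19.3 CPM in PGK. Also near was NEFM (chromosome 8, distance 2.46), a neurofilament of neurons, with 6 counts in all CAG libraries.

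Genes that work with the complex went in both directions. Over 11 lists with 99 tested genes outside the 10, 25 were called higher and 38 lower in CAG, or 63.6% called beside 62.0% of all tested genes. Of all tested genes, 31.6% were called higher and 30.4% lower, the shares to set beside each list count below. By list, the share called ran from 40% to 92.9%, in lists of few genes. The median log2 fold change of these genes was -0.07. The adjusted p-values of list genes come from edgeR, with Benjamini-Hochberg adjustment over all 13103 genes, and values in parentheses are on the log2 scale.

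Of the partners and regulators of P-TEFb, 2 of 7 were higher and 3 lower, with a median of -0.19. LARP7, which holds the 7SK RNA that keeps P-TEFb inactive, was higher (0.50, SE 0.05, edgeR adjusted p 1.69e-07). Among ELL partners and the little elongation complex, which acts on small nuclear RNA genes, 1 of 6 was higher and 3 lower, with a median of -0.15. The ELL-binding proteins EAF1 and EAF2 went opposite ways, EAF1 higher (0.53, SE 0.05) and EAF2 lower (-0.68, SE 0.14), with edgeR adjusted p of 6.85e-08 for EAF1 and 2.99e-04 for EAF2. EAF2 had low levels throughout, with means of 3.89 CPM in CAG and 6.22 CPM in PGK.

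The pausing factors DSIF and NELF, which P-TEFb phosphorylates, had 3 of 7 higher and 1 lower, with a median of 0.07. The NELF subunits NELFA (0.46, SE 0.06) and NELFCD (-0.31, SE 0.05) were on opposite sides, with edgeR adjusted p of 1.70e-06 and 1.45e-05. Of the PAF1 complex, which travels with the polymerase, 2 of 6 were higher and 2 lower, with a median of -0.04. PAF1 rose by 0.62 (SE 0.06) and WDR61 by 0.32 (SE 0.05), with edgeR adjusted p of 8.81e-08 and 4.15e-05. Of the 5 tested DOT1L and MLL partners, 2 were higher and 1 lower, with a median of -0.06. The histone methyltransferase DOT1L was lower (-0.30, SE 0.05) and its partner MLLT10 higher (0.57, SE 0.07), with edgeR adjusted p of 4.50e-05 and 1.73e-06.

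Among other kinases and phosphatases of the polymerase tail, 0 of 12 were higher and 5 lower, with a median of -0.10. The phosphatase SSU72 fell by 0.91 (SE 0.06) and CDK7, the kinase of TFIIH, fell by 0.48 (SE 0.06), with edgeR adjusted p of 1.38e-10 and 2.49e-06. Of TFIIS, elongin, SPT6 and FACT genes, 2 of 10 were higher and 2 lower, with a median of -0.03. The elongin subunit ELOA fell by 0.81 (SE 0.05) and TCEA2, a TFIIS factor, fell by 0.68 (SE 0.11), with edgeR adjusted p of 3.71e-10 and 1.07e-04. Of 12 RNA polymerase II subunits, 2 were higher and 4 lower, with a median of -0.07. POLR2H fell by 0.82 (SE 0.06) and POLR2I rose by 0.42 (SE 0.08), with edgeR adjusted p of 5.06e-10 and 8.18e-05. Of 14 subunits of Integrator, which ends transcription of paused polymerase, 5 were higher and 8 lower, with a median of -0.21. INTS11, its RNA-cutting subunit, fell by 0.65 (SE 0.06) and INTS13 fell by 0.58 (SE 0.05), with edgeR adjusted p of 2.17e-08 and 2.90e-08.

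Of 13 signal-inducible genes, a class at which release of paused polymerase is well studied, 2 were higher and 8 lower in CAG, with a median of -0.46. JUNB, a subunit of AP-1, was at 7.23, 5.13 and 7.26 CPM in CAG and at 19.6, 18.4 and 20.5 CPM in PGK, and fell by 1.57 (SE 0.11). The phosphatase DUSP1 was at 18.4, 16.0 and 18.6 CPM in CAG and at 44.6, 40.5 and 45.7 CPM in PGK, and fell by 1.31 (SE 0.07). Their edgeR adjusted p was 5.75e-10 for JUNB and 4.08e-11 for DUSP1, and the lines did not overlap for either. Of 7 targets of MLL fusion proteins, which carry AFF1, MLLT1, MLLT3 or ELL sequence in leukaemia, 4 were higher and 1 lower, with a median of 0.25. HOXA9 rose by 0.54 (SE 0.06) and PBX3 by 0.35 (SE 0.06), with edgeR adjusted p of 9.63e-08 and 5.98e-05. Of the genes named from these lists, CCNT2, LARP7, EAF1, WDR61, DOT1L, MLLT10, SSU72, ELOA, POLR2I, INTS11, JUNB, DUSP1 and HOXA9 overlap an annotated gene on the other strand. NELFA, WDR61, TCEA2, INTS11, HSPA1B and HOXA9 overlap one on the same strand, which for HOXA9 includes HOXA10. The values of all these genes are uncertain, as are those of HSPA1A and HSPA1B among the inducible genes, which are near-identical.

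**Figure D5:**
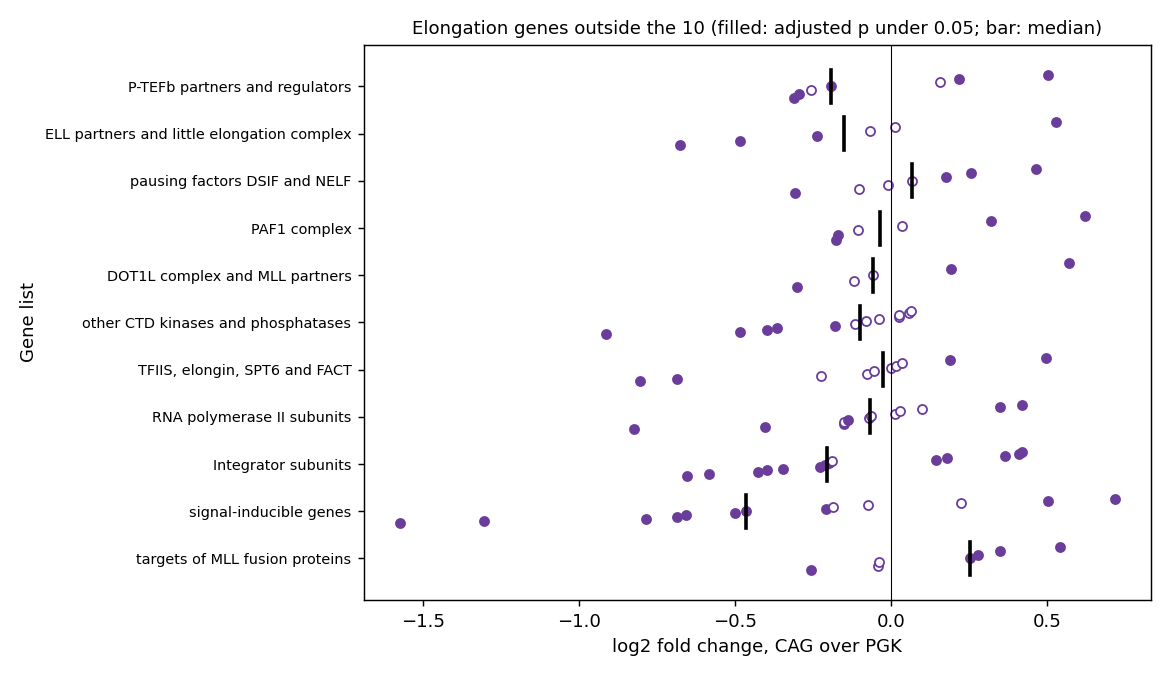
Log2 fold change, CAG over PGK, of the 99 tested genes of 11 lists around the complex, with filled points for genes called at an adjusted p under 0.05 and bars for list medians. Points lie on both sides of 0 in all lists, and the lowest is JUNB at -1.57.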

How the data were processed

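The authors deposited whole-number read counts per Ensembl gene for 3 CAG and 3 PGK libraries, not normalized. The submitters' processing notes name hg19, featureCounts 2.0.3, HISAT2 2.2.1, Bowtie2 2.5.1 and cutadapt 4.6, with no role; the annotation and strand setting were not found in the labels or file. GENCODE 29, on GRCh38, gave symbols for 19346 rows, gene order, exon lengths and transcripts, so no coordinates are given. Genes were filtered with filterByExpr, scaled by TMM and tested two-sided with edgeR 4.0.16 (R 4.3.3, robust quasi-likelihood, Benjamini-Hochberg over 13103 genes). CPM are on the TMM-scaled size. Each SE was obtained as log2 fold change divided by √F. The script was tested on simulated counts. Alternatives were other filters, RLE or library-size scaling, DESeq2 1.42.0, limma-voom 3.58.1, a replicate block and leaving out each library. The genes and lists were chosen with earlier results of these data known. Named beside the 10 genes were up to 2 called genes per list with the largest change and at least 1 CPM, 3 tested genes on each side of AFF2 and the 3 most like it. MLLT6 and PECAM1 were not analysed here. A few genes picked by that rule are left out.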

Additional observations from a re-analysis of the deposited data

How the results depend on the processing

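Over 13 alternative fits, 7326 to 8861 genes, 59 to 70 list genes and 5 to 8 of the 10 genes were called. AFF1, AFF2, AFF3, ELL and MLLT1 kept their direction and call in all 13. AFF4 (3 fits), ELL2 (2), CCNT1 (5) and MLLT3 (1) were called in some. CDK9 turned to 5.44e-04 with library size only. Same-numbered libraries deviated together by correlations of 0.108, 0.103 and 0.0131, which do not settle whether the numbers pair the samples. With the replicate number as a block, 8 of the 10 genes were called. All 6 libraries deviated most like the library of their own number. Deviations were taken from each line's mean of 3, so these matches depend on one another and do not settle pairing either. AFF2 was at 0.829% to 1.47% of its PGK level without single libraries. With the longest transcript as length, the AFF2 share in PGK was 9.03% and the MLLT3 share 32.1% in CAG and 26.6% in PGK. The AFF3 share was then 10.0% in CAG and 6.27% in PGK, and the AFF4 share in PGK was 66.9%. With windows of 20 genes, the neighbour medians of ELL2 and CCNT1 turned to 0.023 and 0.10, and that of MLLT1 moved to -0.56. The ratio of summed AFF levels, tried under other scalings and lengths after the data were seen, was 1.01 to 1.04. The causes were not tested. Depth limits AFF2 in CAG, with 18 counts in all.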
